A study of Mus musculus with 6 samples.

Results

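Ribosome biogenesis genes were followed in macrophages sorted from mouse liver tumours after treatment with PLX3397, an inhibitor of the receptor tyrosine kinases CSF1R, KIT and FLT3, or with vehicle. Genes were taken by symbol: the UTP, NOP, NOL and RRP series, the RNA polymerase I (Pol I) subunits named Polr1, and Nip7, Ncl, Npm1, Npm3, Fbl, Dkc1, Bop1, Pes1, Wdr12, Wdr43, Nhp2 and Gar1. Of 19938 genes measured through probe sets with exactly 1 gene symbol, 51 met this rule, each represented by its brightest probe set. Npm3 had no such probe set and was not analysed here. The tumours were hepa1-6 hepatoma cells implanted in the livers of C57BL/6 mice, and all 6 arrays came from flow-sorted tumour-associated macrophages: 3 from mice given PLX3397 and 3 from mice given vehicle. Dose, length of treatment, sex and age of the mice are not given in the labels, and although titles call the samples biological replicates, they do not say whether each came from a separate animal or a pool. The description field gives each sample a second name, M(IL4) for PLX3397 samples and M(LPS+IFNγ) for vehicle samples. Titles, sources and treatment labels, which contradict those names, set the groups.

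Ribosomes are assembled in the nucleolus. Pol I transcribes a long ribosomal RNA (rRNA) precursor, the small-subunit (SSU) processome folds and cuts its first part, and a separate set of factors builds the large subunit. Small nucleolar ribonucleoproteins (snoRNPs), of the box C/D and box H/ACA classes, guide the methylation and pseudouridylation of rRNA. MYC is a known activator of many of these genes in growing cells, through E-box sites in their promoters.

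The label of the cells was checked first. Csf1r was at 11.05 ± 0.11 with PLX3397 and 10.96 ± 0.02 with vehicle, and Cd68 at 11.20 ± 0.01 and 11.26 ± 0.08 (log2 intensity, mean ± SD, n = 3 each). Of 7 macrophage markers 1 was higher (Itgam) and 3 were lower (Adgre1, Fcgr1 and Mertk), against 19.6% and 18.3% of all genes. Across genes, which are not independent replicates, array correlations were 0.9916 to 0.9963 within PLX3397, 0.9961 to 0.9966 within vehicle and 0.9512 to 0.9612 between groups. PLX3397 replicate 3 gave the lowest within-group values, and the count of members that fell is also given without it.

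Transcripts of ribosome biogenesis genes were lower in macrophages of PLX3397-treated mice. Of the 51 members 33 fell and 2 rose (limma, Benjamini-Hochberg adjusted p below 0.05 over all genes), against 18.3% of all genes lower and 19.6% higher. The deepest falls were those of Nop58, Wdr43, Ncl, Nol7, Dkc1, Npm1 and Utp11, each by more than 1 log2 unit. In all, 13 members fell by at least 1 log2 unit and 0 rose by as much, where 4.04% of all genes fell that far. The median change of the members was -0.42 (PLX3397 minus vehicle, log2), against 0.04 over all genes. Groups did not overlap in 36 members lower with PLX3397 and 3 higher, against 21.9% and 27.4% of all genes. Without PLX3397 replicate 3, 31 of the same 33 members passed as lower, where 16.7% of all genes were lower and 18.9% higher. In sorted bulk samples, fewer cells of a type and less RNA per cell cannot be told apart.

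All 51 members exceeded the background level on every array, so no member had to pass through 1 group alone. Their mean levels lay between 4.63 and 8.49. Among the 8365 genes within that range 32.6% were lower, 26.7% were higher and the median change was -0.01. Of these 8365 genes 673 fell by at least 1 log2 unit. Groups did not overlap in 3021 of them lower with PLX3397 and 2680 higher. The members lay below other genes at like levels, with a median of -0.44 for 15 members at 5 to 6 (all genes 0.06), -0.49 for 16 members at 6 to 7 (all genes -0.10) and -0.42 for 15 members at 7 to 8 (all genes -0.14). Centring each array on its median moved the median of all genes to -0.09 and that of the members to -0.55. Centring shifts every gene alike, so it says nothing of the gap between them.

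**Figure D1:**
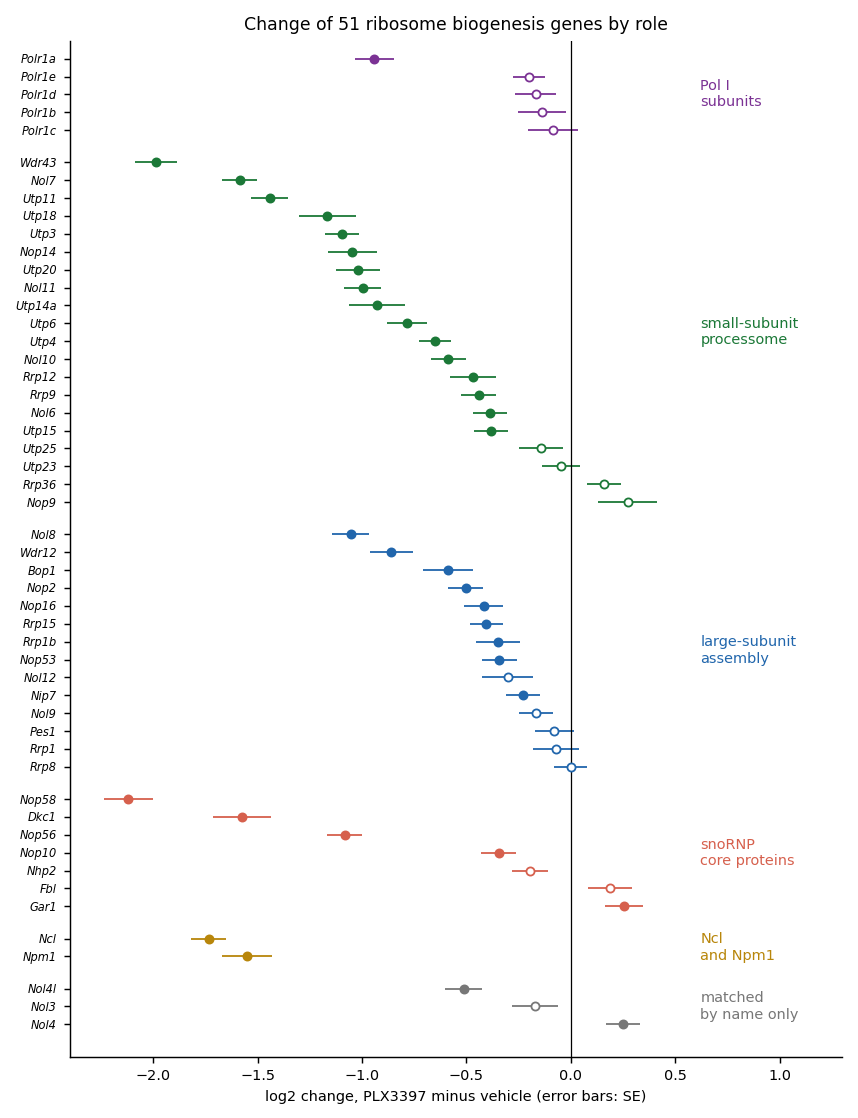
Change of each of the 51 members (PLX3397 minus vehicle, log2) with the standard error of the limma fit, grouped by role. Filled points passed the adjusted p threshold of 0.05 and open points did not. Most points lie left of 0, and those of Nop58 (-2.12) and Wdr43 (-1.99) lie farthest.

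A few promoters are shown because the members moved together and because MYC is a known regulator of the set. Nop58 and Ncl are among the deepest falls and hold neither motif, in the exact letters given below, in this stretch. Utp18, Nol11 and Nop2 fell and hold an E-box. Each is the 150 bases before the annotated start, on the gene's strand, from RefSeq (GRCm38.p6): Nop58 at chr1:59684856-59685005 (+ strand), Ncl at chr1:86359456-86359605 (- strand), Utp18 at chr11:93885767-93885916 (- strand), Nol11 at chr11:107189382-107189531 (- strand) and Nop2 at chr6:125131733-125131882 (+ strand). Capitals mark the E-box CACGTG, which reads the same on both strands, and an ETS core, taken here as CCGGAAG or its reverse complement CTTCCGG. Shorter forms, such as the CCGGAA in Nop58, are not marked or counted.
Nop58: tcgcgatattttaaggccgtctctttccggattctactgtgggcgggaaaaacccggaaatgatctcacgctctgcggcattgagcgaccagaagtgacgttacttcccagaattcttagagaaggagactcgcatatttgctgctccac
Ncl: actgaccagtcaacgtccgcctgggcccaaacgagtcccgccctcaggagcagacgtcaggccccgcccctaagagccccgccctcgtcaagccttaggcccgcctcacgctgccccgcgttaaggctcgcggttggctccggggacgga
Utp18: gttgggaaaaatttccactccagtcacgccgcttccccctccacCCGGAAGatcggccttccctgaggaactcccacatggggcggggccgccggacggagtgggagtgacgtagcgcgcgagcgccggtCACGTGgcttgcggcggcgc
Nol11: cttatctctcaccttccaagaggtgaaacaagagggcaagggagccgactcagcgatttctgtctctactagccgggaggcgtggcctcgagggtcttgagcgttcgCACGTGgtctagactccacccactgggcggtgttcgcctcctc
Nop2: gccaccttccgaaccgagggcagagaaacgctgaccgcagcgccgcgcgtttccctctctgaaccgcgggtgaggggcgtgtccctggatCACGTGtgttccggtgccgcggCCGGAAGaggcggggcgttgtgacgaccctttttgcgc
Counted from the annotated start, the first base of the E-box lay at -20 in Utp18, -43 in Nol11 and -60 in Nop2. RefSeq promoter windows, of 250 bases before the start and 50 after it, were matched for 40 of the 51 members. An E-box lay in 8 of these 40 (20%), against 8.09% of 27025 genes, and an ETS core in 14 (35%), against 9.93%. Within the matched members, 6 of 26 that fell (23.1%) and 2 of 14 others (14.3%) held an E-box, and 8 of 26 (30.8%) and 6 of 14 (42.9%) held an ETS core. The 2 others with an E-box were Utp25 and Pes1. All promoters printed above are of genes that fell. These shares are descriptions, with no adjustment for base composition, and a letter match is not a bound site.

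The SSU processome was the largest of the roles. Of its 20 members 16 fell (80%, against 18.3% of all genes) and 0 rose, with a median change of -0.72. Wdr43, a subunit of the sub-complex that joins rRNA transcription to early processing, had log2 intensities of 6.49, 6.37 and 6.27 with PLX3397, against 8.33, 8.53 and 8.22 with vehicle. The groups lay well apart, and the change of -1.99 (SE 0.10, limma adjusted p = 2.51e-07) was a 3.96-fold fall. Nol7, a nucleolar protein of the same assembly, was at 4.53, 4.44 and 4.33 with PLX3397, against 6.03, 6.04 and 5.99 with vehicle, a change of -1.59 (SE 0.08, limma adjusted p = 3.10e-07). All 3 treated arrays were below all 3 controls here as well. Utp11, a component of the U3 particle, was at 7.01, 7.05 and 6.79 with PLX3397, against 8.41, 8.40 and 8.37 with vehicle (2.72-fold lower, limma adjusted p = 9.60e-07).

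Utp18, a WD-repeat subunit, fell by 1.17 and varied more with PLX3397 (5.36 ± 0.31) than with vehicle (6.52 ± 0.05). Utp3 fell by 1.10, and the scaffold proteins Nop14 and Utp20 by 1.05 and 1.02. Of the subunits that, like Wdr43, act in rRNA transcription as well as processing, Nol11 fell by 1.00, Utp4 by 0.65 and Utp15 by 0.38, so that the size of the fall differed within 1 sub-complex. The other falls, of Utp14a, Utp6, Nol10, Rrp12, Rrp9 and Nol6, ranged from -0.93 to -0.39. Utp25, Utp23, Rrp36 and Nop9 did not pass, with changes of -0.14, -0.05, 0.16 and 0.27. Rrp36 passed as higher with quantile normalisation and with cyclic loess (limma adjusted p as low as 0.034).

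The core proteins of the snoRNPs did not all fall. Of 7 members 4 fell (57.1%, against 18.3% of all genes) and 1 rose (14.3%, against 19.6%). Nop58, which with Nop56 holds the box C/D particle together, was at 5.41, 5.12 and 5.50 with PLX3397, against 7.38, 7.64 and 7.37 with vehicle. This was the deepest fall of the 51 members, 4.35-fold (-2.12, SE 0.12, limma adjusted p = 4.80e-07). Nop56 was at 7.68, 7.66 and 7.73 with PLX3397, against 8.76, 8.88 and 8.68 with vehicle (2.12-fold lower, limma adjusted p = 4.20e-06).

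Fbl, the rRNA methyltransferase of the same particle, overlapped between groups at 7.70, 7.46 and 7.87 with PLX3397, against 7.53, 7.43 and 7.50 with vehicle (0.19, limma adjusted p = 0.202). Its probe sets disagreed. The dimmer of the 2 was lower by 0.64 (6.71 ± 0.18 with PLX3397 and 7.35 ± 0.07 with vehicle, limma adjusted p = 8.74e-04 over all 28941 probe sets, of which 17.4% were lower and 17.3% higher), their mean passed as lower (-0.22, limma adjusted p = 0.037), and without PLX3397 replicate 2 the brighter passed as higher (limma adjusted p = 0.037). No direction can therefore be given for Fbl.

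In the box H/ACA particle, Dkc1, the pseudouridine synthase, was at 4.45, 4.28 and 4.51 with PLX3397, against 5.66, 6.24 and 6.07 with vehicle. It fell 2.98-fold (-1.58, SE 0.14, limma adjusted p = 1.05e-05), with vehicle replicate 1 the lowest of its group. Nop10 fell by 0.35 and Nhp2 did not pass (-0.20, limma adjusted p = 0.099). Gar1 was narrowly higher, at 5.89, 6.05 and 5.86 with PLX3397, against 5.71, 5.58 and 5.76 with vehicle (0.25, limma adjusted p = 0.046). The Gar1 call was lost without any of the arrays other than PLX3397 replicate 3, and its adjusted p reached 0.329 with centred arrays.

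**Figure D2:**
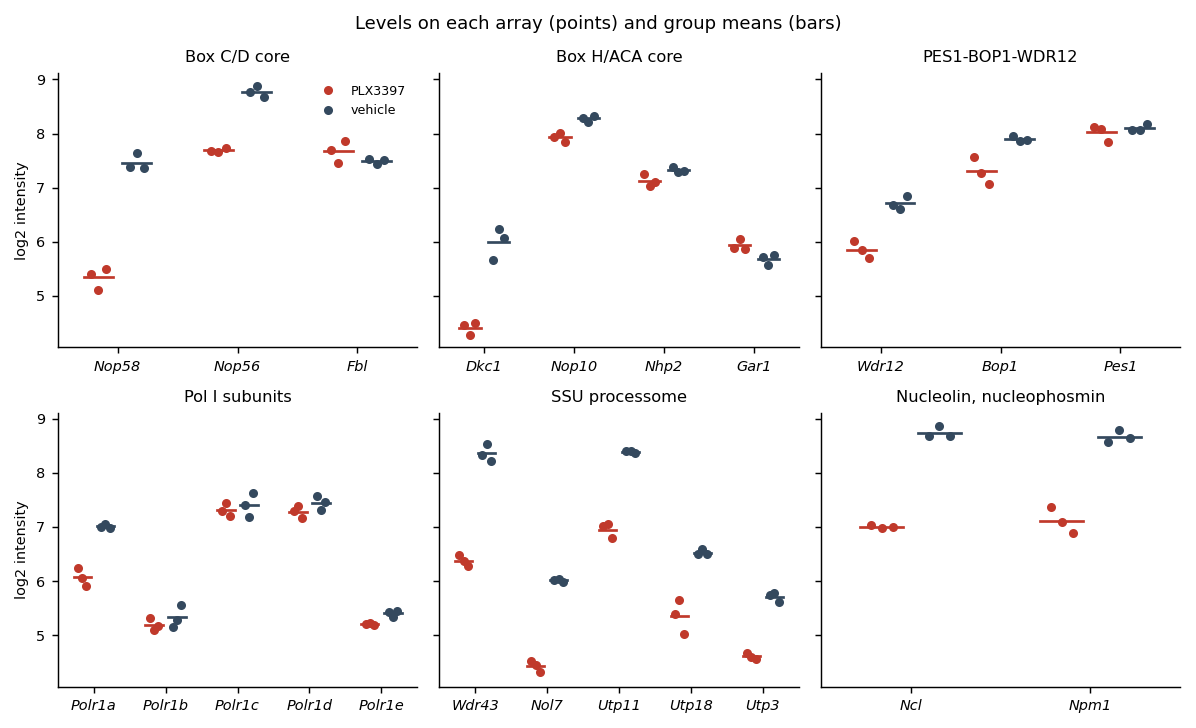
Log2 intensity on each array for members of 6 complexes or groups, PLX3397 (red, left) beside vehicle (dark, right), with bars at the group means. Nop58, Dkc1, Wdr43, Nol7, Utp11, Ncl and Npm1 separate widely, while Fbl, Pes1, Polr1b, Polr1c and Polr1d overlap.

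Within-array differences between partners were then compared between groups. The log2 difference of Nop58 from Fbl changed by -2.31 with the brighter probe set of Fbl and by -1.48 with the dimmer. That of Nop56 from Fbl changed by -1.27 with the brighter and by -0.45 with the dimmer, so its size depends on the probe set. That of Nop58 from Nop56 changed by -1.04. That of Dkc1 from Gar1 changed by -1.83, from Nhp2 by -1.38 and from Nop10 by -1.23. Groups did not overlap in any of these, and the exact permutation test gave p = 0.1 (two-sided), the smallest value that 3 against 3 arrays allow. The pairs, 13 in all with those named further on, were chosen after their values were seen, and the Benjamini-Hochberg adjusted value is also 0.1. Separation of the groups in these pairs is therefore a description and no support of its own. How often other pairs of genes separate was not counted.

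Ncl and Npm1 encode nucleolin and nucleophosmin, abundant nucleolar proteins that bind RNA and histones. Ncl was at 7.04, 6.98 and 6.996 with PLX3397, against 8.68, 8.87 and 8.67 with vehicle. It fell 3.33-fold (-1.73, SE 0.08, limma adjusted p = 1.98e-07) with tight values in each group. Npm1 was at 7.36, 7.08 and 6.90 with PLX3397, against 8.57, 8.78 and 8.65 with vehicle, a fall of 2.93-fold (limma adjusted p = 4.26e-06).

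Of 14 large-subunit assembly members 9 fell (64.3%, against 18.3% of all genes) and 0 rose, with a median change of -0.35. PES1, BOP1 and WDR12 form a complex needed to process the large-subunit rRNA. Wdr12 was at 6.01, 5.85 and 5.70 with PLX3397, against 6.68, 6.61 and 6.85 with vehicle (1.82-fold lower, limma adjusted p = 8.46e-05), and its dimmer probe set was lower too (-1.13). Bop1 was at 7.57, 7.27 and 7.07 with PLX3397, against 7.95, 7.86 and 7.87 with vehicle (1.51-fold lower, limma adjusted p = 0.003). Pes1 overlapped, at 8.12, 8.09 and 7.85 with PLX3397, against 8.06, 8.06 and 8.18 with vehicle (-0.08, limma adjusted p = 0.563). The within-array difference of Wdr12 from Pes1 changed by -0.78 and that of Bop1 from Pes1 by -0.51, again with exact permutation p = 0.1.

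Nol8 fell furthest in this group, by 1.06 (4.66 ± 0.13 with PLX3397 and 5.71 ± 0.06 with vehicle). Nop2, a cytosine methyltransferase of the large-subunit rRNA, fell by 0.50 and Nop16 by 0.42. Rrp15 fell by 0.41, Nop53, which brings the RNA exosome to the precursor particle, by 0.34, and Rrp1b by 0.35. The call of Rrp1b was lost without PLX3397 replicate 2 or 3 or vehicle replicate 2 (limma adjusted p up to 0.079). Nip7, a binding partner of assembling large subunits, was lower by 0.23 on the edge of the threshold (limma adjusted p = 0.048), and the call was lost without any array other than vehicle replicate 1 and with quantile normalisation (adjusted p up to 0.202). Nol12, Nol9, Pes1, Rrp1 and Rrp8 did not pass, with changes from -0.30 to 0.00.

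Of 5 Pol I subunits with a Polr1 symbol 1 fell (20%) and 0 rose, with a median change of -0.17. This share is close to the 18.3% of all genes that were lower and under the 32.6% in the members' level range. It leaves out the Pol I subunits that carry other symbols here, which are listed with the further factors. Of those, Twistnb (-1.47) and Znrd1 (-0.81) fell and Cd3eap (0.05) did not pass. The fall was that of Polr1a, the largest subunit and part of the catalytic centre, which was at 6.23, 6.06 and 5.91 with PLX3397, against 6.99, 7.05 and 6.98 with vehicle (1.92-fold lower, limma adjusted p = 2.64e-05). Polr1b, the other large catalytic subunit, overlapped at 5.32, 5.10 and 5.17 with PLX3397, against 5.15, 5.29 and 5.56 with vehicle (-0.14, limma adjusted p = 0.381). The within-array difference of Polr1a from Polr1b changed by -0.80 (exact permutation p = 0.1). Polr1c and Polr1d, which Pol III shares, and Polr1e changed by -0.09, -0.17 and -0.20 without passing. The dimmer probe set of Polr1d was lower by 0.42 (limma adjusted p = 0.012 over all probe sets), and Polr1e passed as lower when arrays were centred, quantile normalised or fitted by cyclic loess (limma adjusted p as low as 0.007).

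Another 3 members match only by name. Nol4l fell by 0.51, Nol3, an inhibitor of apoptosis, did not pass (-0.17), and Nol4 was higher by 0.25 (limma adjusted p = 0.032). The Nol4 call was lost without PLX3397 replicate 1 or 2 or vehicle replicate 2 or 3, and its 2 dimmer probe sets did not pass (0.11 each).

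Further factors of the pathway, listed from knowledge of the pathway with earlier results of these data known, were mostly lower too in subunit assembly and RNA decay. Of 29 further SSU factors 28 fell and 1 rose, with a median of -0.65. Dnttip2 fell by 1.75, Mphosph10, a U3 particle protein, by 1.49, Pno1 by 1.47 and Ltv1, which acts late in the cytoplasm, by 1.40. The 1 rise was that of Noc4l (0.38), and it was lost with centred arrays. Of 30 further large-subunit factors 27 fell and 0 rose, with a median of -0.87. Rpf1 and the nucleolar GTPase gene Gnl3, which encodes nucleostemin, fell by 1.64 each, the giant ATPase gene Mdn1 by 1.47 and Rpf2 by 1.46. Of 13 RNA exosome genes and cofactors 10 fell and 0 rose, against 18.3% of all genes lower, led by the nuclease gene Dis3 (-1.88) and the helicase gene Mtrex (-1.16).

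Of 20 further Pol I factors 8 fell (40%) and 2 rose, with a median of -0.12. The share lower is above the 18.3% of all genes. It is nearer the 32.6% in the members' level range and the 37.2% of genes with a mean level of 6 or more. Twistnb, a stalk subunit of Pol I, fell by 1.47, Taf1b, a subunit of the promoter selectivity factor, by 1.19, the chromatin remodeller gene Smarca5 by 0.97 and Znrd1, a small Pol I subunit, by 0.81. Rrn3, which joins Pol I to its promoter factors, fell by 0.61, while Taf1d rose by 0.79. Ubtf, which encodes the upstream binding factor of rRNA genes, did not pass (-0.15), nor did the Pol I subunit gene Cd3eap (0.05). Of 10 snoRNP assembly factors 4 fell (40%, against 18.3%, 32.6% and 37.2% for the same sets of genes) and 0 rose (median -0.15). Znhit6 was lower by 0.96, Naf1 by 0.87 and Snu13, which binds the box C/D fold, by 0.62. Rpap3 fell by 0.34, a call lost without PLX3397 replicate 1 or 2 or vehicle replicate 1 or 3 (limma adjusted p up to 0.12).

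Small RNAs of ribosome biogenesis were mostly higher with PLX3397. The list, added after the values were seen, holds 53 small nucleolar RNAs of both box classes with U3 (Rnu3a) and the RNA of RNase MRP (Rmrp). Of these 36 rose and 4 fell, against 19.6% and 18.3% of all genes, with a median change of 0.61. Among the 38 with a mean level of 6 or more 32 rose (84.2%) and 1 fell, against 26.8% higher and 37.2% lower of all 6263 genes at such levels. Rnu3a, the U3 RNA around which the SSU processome forms, was at 8.76, 8.95 and 8.70 with PLX3397, against 6.52, 6.14 and 6.44 with vehicle. It rose 5.41-fold (2.44, SE 0.11, limma adjusted p = 1.61e-07), where most protein genes of the same assembly fell. U3 has near-identical gene copies, so the value cannot be assigned to a single locus.

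Snora69 was at 8.14, 8.34 and 8.15 with PLX3397, against 5.55, 5.14 and 5.24 with vehicle, the largest rise of the list (7.48-fold, limma adjusted p = 4.74e-08). Snord118, the U8 RNA of large-subunit rRNA processing, rose by 1.77 and Snord58b by 1.81. Snora73a and Snora73b, which take part in cleavage of the rRNA precursor, rose by 1.19 and 1.25. Rmrp, the brightest of the list, rose by 0.40, a call lost with centred arrays (limma adjusted p = 0.053). Box C/D RNAs rose in 23 of 31 cases and box H/ACA RNAs in 11 of 20, against 19.6% of all genes. Their median mean levels were 8.26 and 5.87, and the classes were not compared at like levels. RNA of both groups was purified with the miRNeasy kit, which keeps small RNAs. The array cannot tell a mature small RNA from a precursor that still holds it.

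Many small nucleolar RNAs are cut from introns of protein-coding genes. By position in GRCm38.p6, with strand not used, 28 of the 53 lay inside a measured protein-coding gene, 4 of them in members. Ncl fell by 1.73 while Snord82 inside it rose by 0.38 (10.28, 10.31 and 10.14 with PLX3397, against 9.92, 9.71 and 9.96 with vehicle), a rise that did not pass with centred arrays. Snora75, also inside Ncl, was above background on 0 PLX3397 arrays and 1 vehicle array. It was lower by 0.45, a call lost without PLX3397 replicate 1 or 2 or vehicle replicate 2 (limma adjusted p up to 0.1). Nop56 fell by 1.08 while Snord57 rose by 0.78 (10.38, 10.43 and 10.55 with PLX3397, against 9.90, 9.45 and 9.68 with vehicle). Wdr43 fell by 1.99, and Snord53 inside it did not pass (0.22), although it did with quantile normalisation or cyclic loess (limma adjusted p as low as 0.027).

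The within-array difference of Ncl from Snord82 changed by -2.11, that of Ncl from Snora75 by -1.29, that of Nop56 from Snord57 by -1.87 and that of Wdr43 from Snord53 by -2.21, each with groups that did not overlap and an exact permutation p of 0.1. Over all 28 pairs of host and small RNA, 9 joined a host that fell to a small RNA that rose. These were 9 of the 15 pairs whose host fell (60%). In 2 others, Ncl with Snora75 and Rpl10 with Snora70, the small RNA fell as well, Snora75 being mostly below background. Where the host did not fall the small RNA rose in 9 of 13 pairs (69.2%), a difference that was not tested. The widest of the first 9 was that of Ipo7, an importin gene (-1.42), with Snora23 (1.51).

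**Figure D3:**
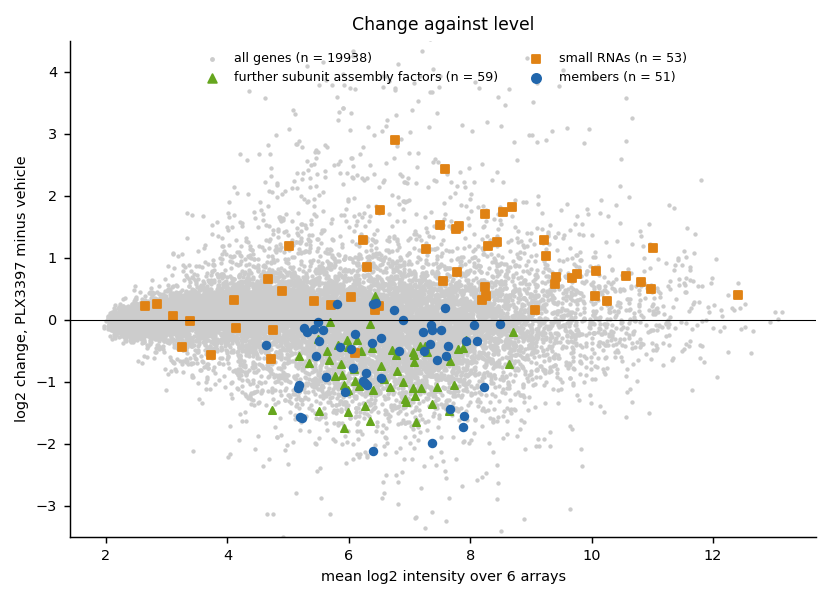
Change (PLX3397 minus vehicle, log2) against mean log2 intensity over the 6 arrays for all genes (grey), members (blue circles), further subunit assembly factors (green triangles) and small RNAs (orange squares), with 26 genes beyond the axis. Blue and green points lie mostly below 0 between levels of 4.63 and 8.71, and orange points mostly above it.

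In the MYC network 4 of 12 genes rose (33.3%) and 3 fell (25%), against 19.6% and 18.3% of all genes. The share higher is nearer the 26.7% in the members' level range. The share lower lies between the 18.3% of all genes and the 32.6% in that range. Genes with a mean level of 6 or more were higher in 26.8% and lower in 37.2% of cases. Myc itself was at 7.25, 7.03 and 6.68 with PLX3397, against 7.24, 7.52 and 7.43 with vehicle. The groups overlapped, and the fall of 0.41 (SE 0.14, limma adjusted p = 0.040) was lost without PLX3397 replicate 2 or 3 or vehicle replicate 2 or 3 and with quantile normalisation, cyclic loess or array weights (adjusted p up to 0.138). Mxd1, which pairs with MAX and opposes MYC at E-boxes, was at 8.44, 8.62 and 8.24 with PLX3397, against 6.99, 7.04 and 6.88 with vehicle (2.76-fold higher, limma adjusted p = 2.52e-06). Mxi1, of the same family, was at 7.63, 7.44 and 7.32 with PLX3397, against 5.85, 5.93 and 6.08 with vehicle (2.85-fold higher, limma adjusted p = 1.82e-06). Mga fell by 0.96.

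Of 13 proliferation genes 6 rose (46.2%, against 19.6% of all genes) and 0 fell. Top2a rose by 2.12, or 0.88 on the mean of its probe sets, Ccne1 by 0.87 and Cdk1 by 0.56, while Mki67 (-0.10) and Pcna (-0.09) did not pass. Of 7 measured genes of the p53 response to nucleolar stress 1 rose (14.3%) and 2 fell (28.6%). Trp53, Cdkn1a and Rpl11 were listed too but had no single-symbol probe set and were not analysed here. The shares in the members' level range were 26.7% and 32.6%, and over all genes 19.6% and 18.3%. Cdkn2a rose by 0.41, and Mdm4 and Rpl5, whose protein joins the MDM2-binding particle, fell by 1.31 and 0.80. Mdm2 did not pass (-0.25).

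**Figure D4:**
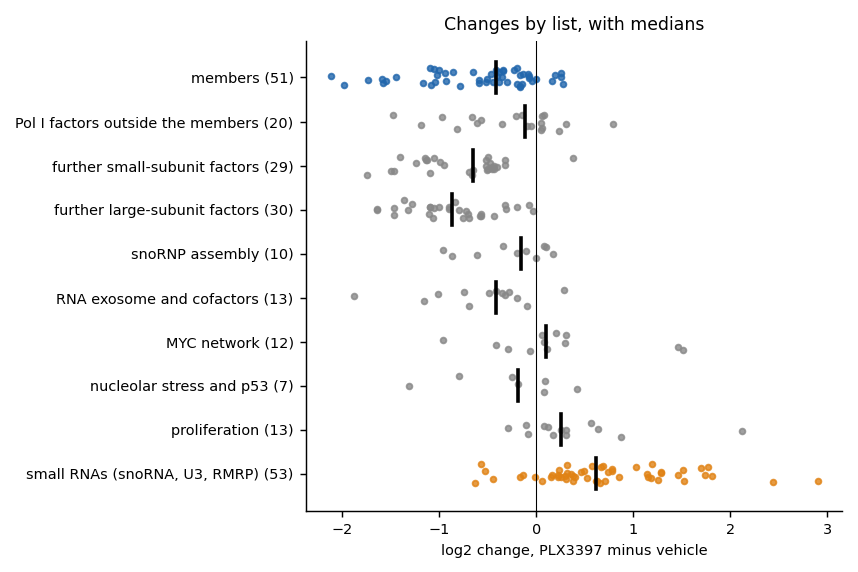
Change (PLX3397 minus vehicle, log2) of every measured gene of the members and of the further lists, with black bars at the medians and the number of genes in brackets. Medians run from -0.87 for further large-subunit factors to 0.61 for small RNAs.

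Markers of other cell types also differed between groups, where 19.6% of all genes were higher and 18.3% lower. Endothelial markers rose in 4 of 5 cases, with a summed linear intensity of 400.0 to 409 with PLX3397 and 138 to 151 with vehicle, and Tek was not above background. Of 8 neutrophil markers S100a8 rose by 1.52 and carried the sum (407 to 731 with PLX3397 and 232 to 247 with vehicle). Ly6g also passed (0.33), but Ly6g, Elane, Cxcr2 and Ngp were not above background on any array, and 2 of 8 is near the 19.6% of all genes that were higher. Of 6 dendritic cell markers Ccr7 rose by 3.35 and carried the sum (188 to 368 with PLX3397 and 75.2 to 82.0 with vehicle). Zbtb46 rose by 0.39, Flt3 did not pass (0.26), and Xcr1, Clec9a and Siglech were not above background. Of 5 hepatocyte markers Trf alone rose, by 2.85, and carried the sum (2350 to 2994 with PLX3397 and 371 to 410 with vehicle). Apoa1 (0.18) and Afp (-0.07) did not pass, and Alb and Ttr were not above background. Of 4 B cell markers 3 passed as higher (sum 66.1 to 73.7 with PLX3397 and 51.9 to 55.8 with vehicle), but Ms4a1 and Cd79a among them were not above background on any array, which leaves Cd79b (0.62), and Pax5 did not pass (-0.07). Of 5 fibroblast markers 2 passed as lower, against 18.3% of all genes: Col1a1 (-0.60) and Col1a2 (-0.43, with groups that overlapped). Dcn (0.95), Pdgfrb (0.29) and Col3a1 (0.13) went the other way without passing. The sums overlapped (385 to 778 with PLX3397 and 344 to 555 with vehicle). T cell, NK cell, erythroid and mast cell lists had 0 calls. The part of other cells in the changes of ribosome biogenesis genes was not tested.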

How the data were processed

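Expression was measured on Affymetrix Mouse Gene ST arrays, per the labels' protocols. Log2 intensities for each probe set were used as the authors deposited them, the log base being inferred from their range (1.57 to 13.5). How they were summarised, scaled and filtered is not stated in any source used here, and MAS5 is named, without a role, per the submitters' processing notes. Array medians (4.32 to 4.35 with PLX3397 and 4.21 to 4.25 with vehicle) differed by less than 0.5, and no further scaling was applied. Of 28941 probe sets 21789 carry 1 symbol, 1621 several and 5531 are unnamed here. Each of 19938 genes was read from its brightest probe set. A linear model with treatment group alone was fitted to all genes with limma (version 3.58.1, R version 4.3.3; moderated two-sided test), checked on simulated data, with Benjamini-Hochberg adjustment over all of them. The background level was set on each array at the 95th percentile over 1194 receptor genes of the olfactory and vomeronasal families (3.52 to 3.58). The number of arrays limits precision, and no batch is recorded.

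Members and lists were chosen with earlier results of these data known. Named genes were a fixed set (Polr1a, Polr1b, Ncl, Npm1, Npm3, Fbl, Dkc1, Nop56, Nop58, Bop1, Pes1, Wdr12, Nip7 and Myc), up to 5 per role and up to 4 per further list with the largest called change, members whose probe sets disagreed, and markers that passed or lay at background. Small RNAs, partner pairs and genes named beyond that were chosen after their values were seen. Of the listed genes, those without a single-symbol probe set were not analysed here. Alternatives covered scaling, filters on dim genes, the variance model, array weights, the replicate number as a block, probe set choice, a stricter threshold and leaving out each array. Same-numbered arrays did not deviate together (correlations of deviations from group means between -0.013 and 0.008).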

Additional observations from a re-analysis of the deposited data

How the results depend on the processing

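Members that fell numbered 33, with 31 to 33 when an array was left out and 31 to 39 under the other alternatives, and 31 of the 33 passed as lower in all 18 alternatives. The median change of the members ran from -0.55 with centred arrays to -0.37 without PLX3397 replicate 3. Most other movements concern counts of a few genes. With centred arrays 2282 genes were higher instead of 3900 (30.6% of calls higher instead of 51.7%), 0 members, 0 snoRNP core genes, 0 genes matched by name only and 0 further SSU factors were higher, as were 1 further Pol I factor and 2 MYC network genes, while 3 Pol I subunits, 2 genes matched by name only, 4 p53 genes and 1 proliferation gene were lower. With quantile normalisation 1 SSU processome gene and 1 exosome gene were higher, and 2 Pol I subunits and 1 proliferation gene were lower. With cyclic loess 1 SSU processome gene was higher and 2 Pol I subunits were lower. With genes of mean level 4 or more only, 2 small RNAs were lower. With the variance trend 1 member and 0 snoRNP core genes were higher, and with array weights 1 further Pol I factor was. With the mean of probe sets 1 member, 0 genes matched by name only and 1 further Pol I factor were higher, 2 Pol I subunits were lower and Fbl turned to -0.22. At an adjusted p below 0.01, 2475 genes, 0 members, 0 snoRNP core genes, 0 genes matched by name only, 1 further Pol I factor, 0 further SSU factors and 2 MYC network genes were higher, and 1 MYC network gene and 2 small RNAs were lower, as a stricter threshold implies. Leaving out 1 array gave 0 to 2 members, 0 to 1 snoRNP core genes, 0 to 1 genes matched by name only, 1 to 2 further Pol I factors, 2 to 4 MYC network genes and 0 to 1 exosome genes higher, and 1 to 3 MYC network genes, 0 to 1 proliferation genes and 2 to 4 small RNAs lower. With the replicate block, for numbers that do not pair the arrays, 1 member, 0 snoRNP core genes and 1 further Pol I factor were higher. The cause of the other movements was not tested.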

Other observations

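Outside the comparison of single genes, 8 probe sets carry the symbol of a member together with that of another gene and were left out. In a fit over all 28941 probe sets, where 17.4% were lower and 17.3% higher, 7 of them were lower with PLX3397, by -1.31 to -0.46, and 1 did not pass (-0.07).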
